A study of Mus musculus with 4 samples.

Results

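N-glycosylation is the attachment of a preassembled sugar tree to asparagines of proteins as they enter the endoplasmic reticulum (ER), followed by trimming of that tree while the protein folds. The genes of this pathway were followed in cells sorted for EpCAM, a marker on the surface of epithelia, from mouse lungs at stage E18.5, shortly before birth. The 37 members were chosen by name from the 23444 genes of the deposited table: 21 genes of dolichol-oligosaccharide synthesis, 9 subunits of the oligosaccharyltransferase (OST) and 7 genes of trimming and glycoprotein quality control. All 37 had a row in the table. RNA sequencing gave 4 libraries, 2 of embryos in which Emc3 was conditionally deleted from lung epithelium (KO) and 2 of wild-type embryos (WT). EMC3 belongs to the core of the ER membrane protein complex, an insertase for membrane proteins. The sources used here do not give the Cre driver, the strain or the number of embryos behind a library. Because nothing says that libraries came from separate animals, each p-value speaks only of the spread among these samples, which may be technical.

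In this pathway a sugar tree of N-acetylglucosamine, mannose and glucose is built step by step on dolichol, a long lipid of the ER membrane, first on the cytosolic face and then in the lumen. OST moves the tree to the protein. Glucosidases then remove glucoses, a folding sensor puts a glucose back on proteins that are not yet folded, and a mannosidase marks those that stay misfolded for removal. Alveolar type 2 cells, which secrete surfactant proteins, load much secretory and membrane protein into the ER at this age.

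Levels are in RPKM as the authors deposited them, a read count corrected for gene length and library total. Errors after ± are SD (n = 2 per group), and a library's name joins its group to the 27 or 35 in its column heading. The groups are those of the column headings. The sample titles with the same identifiers call the KO 27 library wild-type and the WT 35 library knockout, so KO 35 and WT 27 are the libraries on which title and heading give the same group. Emc3 itself measured 2.28 RPKM (KO 27) and 2.33 RPKM (KO 35), against 14.2 (WT 27) and 17.99 (WT 35). Its level thus followed the headings, whereas each group of the titles held a low and a high value. RPKM summed to between 141373 and 169294 per library, and the top 10 genes held 14.1% (KO 27) and 15.4% (KO 35), against 20.5% (WT 27) and 26.5% (WT 35). The largest ratio of relative depths, estimated from the lowest RPKM steps, was 1.09. Only small ratios were searched, so a large difference in depth could not have been found this way. Read totals are unknown, and counting intervals are therefore left out. All 4 epithelial markers were detected, and 3 lay above in KO without overlap. Epcam was at 52.9 (KO 27) and 53.9 RPKM (KO 35), and at 35.2 (WT 27) and 46.2 (WT 35). Cdh1 overlapped, at 128 (KO 27) and 105 (KO 35), and at 114 (WT 27) and 127 (WT 35). The 5 alveolar type 2 markers summed to 9495 (KO 27) and 9382 RPKM (KO 35), and to 8057 (WT 27) and 12112 (WT 35). Of these 5, only Abca3 was without overlap, below in KO. The 5 alveolar type 1 markers all overlapped, with sums of 156 (KO 27) and 160 (KO 35), and of 238 (WT 27) and 153 (WT 35). The summed RPKM of 6 immune cell markers was 17.1 (KO 27) and 15.1 (KO 35), against 6.51 (WT 27) and 4.76 (WT 35), with all 6 above in KO and none at 0. The 3 markers of ciliated cells summed to 58.8 (KO 27) and 58.9 RPKM (KO 35), and to 88.3 (WT 27) and 145 (WT 35), all 3 being below in KO. The 3 club cell markers summed to 1729 (KO 27) and 2889 RPKM (KO 35), and to 2807 (WT 27) and 10016 (WT 35). Of these 3 markers 2 were below in KO. Scgb1a1 overlapped, at 1560 (KO 27) and 2698 (KO 35), and at 2556 (WT 27) and 9678 (WT 35). The part of these cell markers in the results below was not tested. In sorted bulk cells, fewer cells of a type and less RNA per cell cannot be told apart.

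Most members lay slightly higher in KO, and none passed the test. The test (limma on log2(RPKM + 1)) took in genes that reached 1 RPKM in 2 or more libraries, and 34 of the 37 members were among the 10128 tested. At an adjusted p of 0.05, 0 members were called, where 0.0296% of all tested genes were called as higher and 0.0395% as lower (0.0691% in all). At an unadjusted limma p under 0.05 there were 5 members higher in KO (Stt3a, Rpn1, Magt1, Dpagt1 and Uggt1), which is 14.7% of those tested against 8.17% of all tested genes, and 1 lower (Dpm3), which is 2.94% against 5.68%. Dpm3 reached 1 RPKM only in WT, so it entered the test only through the group in which it was higher. Both KO libraries lay above both WT libraries for 19 of the 34, or 55.9%, against 30.0% of all tested genes. With quantile normalization the count was 16, against 24.2% of all tested genes. Both KO libraries lay below both WT libraries for 1 (again Dpm3), or 2.94%, against 16.3%. The log2 difference was positive for 30 of 34 members, or 88.2%, against 59.2% of all tested genes. The median difference (KO minus WT) was 0.18 on the log2(RPKM + 1) scale, with quartiles of 0.11 and 0.27, beside a median of 0.056 for all tested genes. Between KO 35 and WT 27, the libraries whose titles and headings give the same group, the difference was positive for 29 of the 34 members, against 60.2% of all tested genes. The groups of the sample titles, which the level of Emc3 did not follow, were also tried. With them the direction turned for 9 of 20 members followed through all settings, and stayed for Stt3a. Rpn1 (log2 difference -0.042) and Magt1 (-0.020) were among the 9. The members' direction as a set was not tested.

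**Figure D1:**
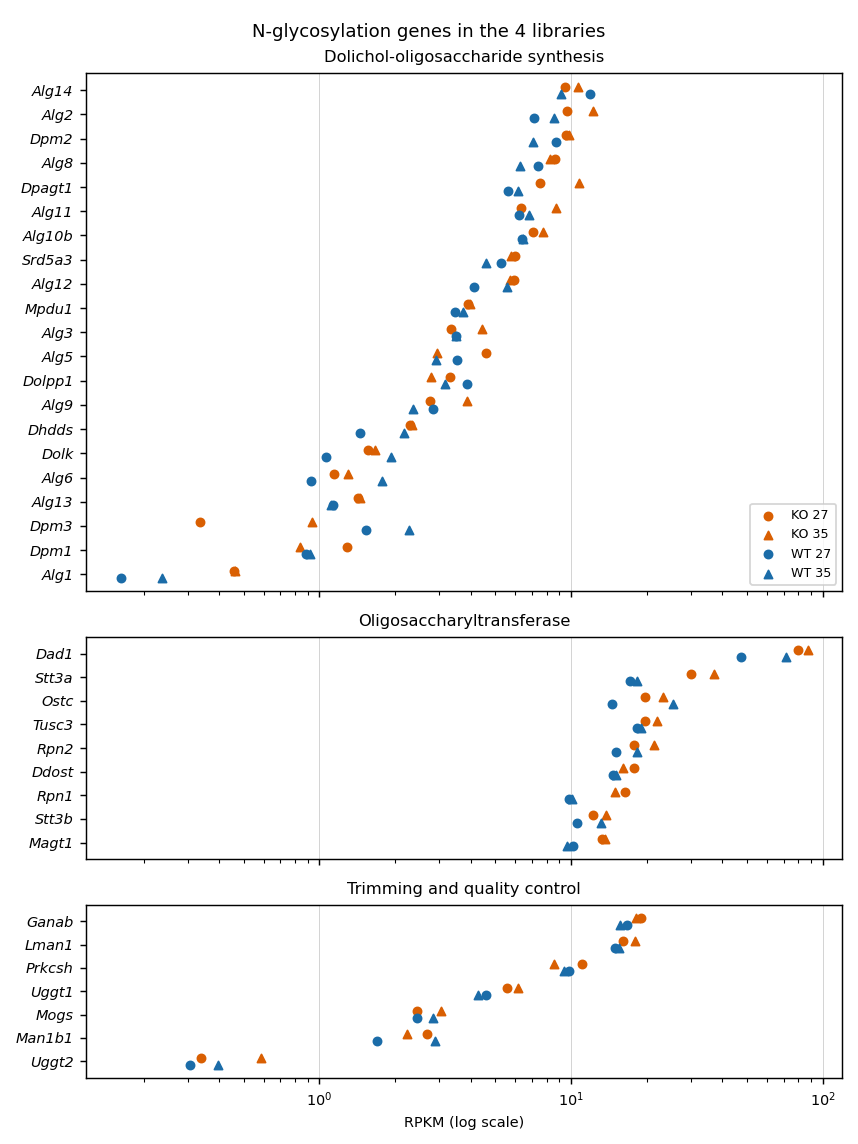
RPKM of each of the 37 members in the 4 libraries, on a log axis, by role and ordered by mean level; orange symbols are KO, blue symbols WT, circles the number 27 and triangles the number 35. The OST subunits lie between 9.65 and 87.5 RPKM in every library, and Stt3a and Rpn1 show the widest gaps between KO and WT among them.

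The 3 roles differed in level. OST subunits ranged from 9.65 RPKM (Magt1 in WT 35) to 87.5 RPKM (Dad1 in KO 35). Synthesis genes ranged from 0.162 RPKM (Alg1 in WT 27) to 12.3 RPKM (Alg2 in KO 35), and trimming genes from 0.305 RPKM (Uggt2 in WT 27) to 18.9 RPKM (Ganab in KO 27). Summed over a role, OST subunits were at 227 (KO 27) and 250 RPKM (KO 35), against 158 (WT 27) and 201 (WT 35). Synthesis genes summed to 96.5 (KO 27) and 107 RPKM (KO 35), against 87.1 (WT 27) and 86.6 (WT 35). Trimming genes summed to 57.1 (KO 27) and 56.6 RPKM (KO 35), against 50.5 (WT 27) and 50.9 (WT 35). The KO sums were above the WT sums in each role without overlap. No share is at hand for sums over other sets of genes, so this is not read further. The sums come from RPKM as deposited, without rescaling. Dad1 alone made up 35.3% (KO 27), 35.1% (KO 35), 30.2% (WT 27) and 35.7% (WT 35) of the OST sum.

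Dolichol-oligosaccharide synthesis was tested for 19 of 21 genes, with a median log2 difference of 0.18. Without overlap, 10 of the 19 (52.6%) lay above in KO and 1 (5.26%) below, beside 30.0% and 16.3% of all tested genes, and the groups of the other 8 overlapped. Dpagt1, which encodes the enzyme that starts the tree by placing N-acetylglucosamine phosphate on dolichol phosphate (chromosome 9, 44325857 to 44333895, GRCm38), was at 7.50 (KO 27) and 10.8 RPKM (KO 35), against 5.62 (WT 27) and 6.13 (WT 35). Both KO values were above both WT values, with the higher one in KO 35. The log2 difference was 0.54 (SE 0.19, limma adjusted p = 0.321). Alg13 and Alg14 together add the next N-acetylglucosamine. Alg13 was at 1.43 (KO 27) and 1.45 RPKM (KO 35), against 1.13 (WT 27) and 1.11 (WT 35). Alg14 was at 9.50 (KO 27) and 10.6 RPKM (KO 35), and at 11.9 (WT 27) and 9.11 (WT 35), with overlap. Their log2 differences were 0.20 (SE 0.14, limma adjusted p = 0.611) and -0.045 (SE 0.17, limma adjusted p = 0.935), and neither passed the test.

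The mannosyltransferases of the cytosolic face come next. Alg2, which adds mannoses early in the tree, was at 9.61 (KO 27) and 12.3 RPKM (KO 35), against 7.16 (WT 27) and 8.58 (WT 35). These groups did not overlap, and the log2 difference was 0.42 (SE 0.17, limma adjusted p = 0.367). Alg11, which extends the same arm, was at 6.34 (KO 27) and 8.74 RPKM (KO 35), and at 6.21 (WT 27) and 6.80 (WT 35), with overlap. Alg1, which adds the first mannose, was at 0.458 (KO 27) and 0.463 RPKM (KO 35), and at 0.162 (WT 27) and 0.237 (WT 35), below the level needed for the test. By GENCODE M21, 26.8% of its exon bases are also exon of Eef2kmt on the opposite strand, and the kit does not mark strand, so these reads cannot be told apart.

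In the lumen, Alg3, Alg9 and Alg12 add mannoses and Alg6, Alg8 and Alg10b add the glucoses that OST recognises. Alg8 was at 8.66 (KO 27) and 8.28 RPKM (KO 35), against 7.41 (WT 27) and 6.24 (WT 35), without overlap (log2 difference 0.28, SE 0.14, limma adjusted p = 0.468). Alg10b, which places the last glucose, was at 7.07 (KO 27) and 7.72 RPKM (KO 35), against 6.41 (WT 27) and 6.45 (WT 35), a narrow gap without overlap. Alg12 was at 5.94 (KO 27) and 5.70 RPKM (KO 35), against 4.12 (WT 27) and 5.55 (WT 35). Its KO values were above both WT values, and WT 35 was close to them. The log2 differences of Alg3, Alg9 and Alg6 were 0.11, 0.26 and -0.061, all with overlapping groups.

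The promoter of Alg12 is shown because it was the 1 member promoter that held a complete ER stress response element (ERSE), the sequence read by the transcription factors ATF6 and XBP1 in the unfolded protein response. The search covered windows of 300 bases, of which 50 lie after the start site, for 31 members in the RefSeq promoter table (GRCm38.p6), on both strands, for the ERSE (CCAAT and CCACG with 9 bases between them), the ERSE-II (ATTGG and CCACG with 1 base between them), TGACGTGG (the core of an XBP1 element) and TGATGNAAT (an ATF4 element). ERSE letters were in the windows of 0.137% of all genes in the table and of 1 of the 31 members, Alg12. Tusc3, Ostc, Alg11, Dpagt1, Lman1 and Alg2 were not matched to the table. The other letters were in 0 of 31 member windows, and in those of 0.0444%, 0.714% and 1.08% of all genes. The 250 bases before the start site read as follows, with the ERSE in capitals:
Alg12 (chr15:88819319-88819568, - strand): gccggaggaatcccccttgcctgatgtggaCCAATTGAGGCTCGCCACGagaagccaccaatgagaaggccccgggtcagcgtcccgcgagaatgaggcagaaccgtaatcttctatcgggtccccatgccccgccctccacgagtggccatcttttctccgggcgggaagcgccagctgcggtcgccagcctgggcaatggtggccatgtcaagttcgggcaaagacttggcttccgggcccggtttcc
The element (chr15:88819520-88819538) lies between Alg12 and Creld2, an ER stress gene read in the opposite direction, and its outer end is 220 bases from the start of Alg12 and 108 bases from that of Creld2. Creld2, looked up after the match was seen, was at 9.62 (KO 27) and 8.44 RPKM (KO 35), against 7.99 (WT 27) and 7.85 (WT 35). These groups did not overlap, and the log2 difference was 0.17 (SE 0.14, limma adjusted p = 0.659). A match of letters is a description and shows no binding.

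Dolichol phosphate and its mannose and glucose carriers are supplied by a separate set of members. Dhdds, the catalytic part of the enzyme that makes the dolichol precursor, was at 2.29 (KO 27) and 2.34 RPKM (KO 35), against 1.45 (WT 27) and 2.16 (WT 35). Srd5a3, a polyprenol reductase on the way to dolichol, was at 5.998 (KO 27) and 5.76 RPKM (KO 35), against 5.29 (WT 27) and 4.61 (WT 35), also without overlap (log2 difference 0.21, SE 0.14, limma adjusted p = 0.570). The dolichol kinase gene Dolk and the phosphatase gene Dolpp1, which recycles the carrier, had overlapping groups, with log2 differences of 0.091 and -0.16. Alg5, which makes dolichol-phosphate glucose, overlapped as well (log2 difference 0.16).

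Dolichol-phosphate mannose synthase has a catalytic subunit, Dpm1, held in the ER membrane with the help of Dpm2 and Dpm3. Dpm3 was the 1 member below in KO without overlap, at 0.335 (KO 27) and 0.939 RPKM (KO 35), against 1.54 (WT 27) and 2.28 (WT 35). Its log2 difference was -0.84 (SE 0.24, limma adjusted p = 0.243), the lowest among the members. Dpm3 reached 1 RPKM only in the WT libraries, so it entered the test only through the group in which it was higher. Dpm2 went the other way, at 9.53 (KO 27) and 9.79 RPKM (KO 35), against 8.71 (WT 27) and 7.03 (WT 35) (log2 difference 0.27, SE 0.15, limma adjusted p = 0.50). Dpm1 was at 1.29 (KO 27) and 0.838 RPKM (KO 35), and at 0.885 (WT 27) and 0.914 (WT 35), with 1 library over 1 RPKM and no test. By GENCODE M21, 35.9% of its exon bases are also exon of Gm20716. Mpdu1, which is needed for the use of the mannose and glucose carriers in the lumen, was at 3.90 (KO 27) and 3.97 RPKM (KO 35), against 3.46 (WT 27) and 3.72 (WT 35).

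**Figure D2:**
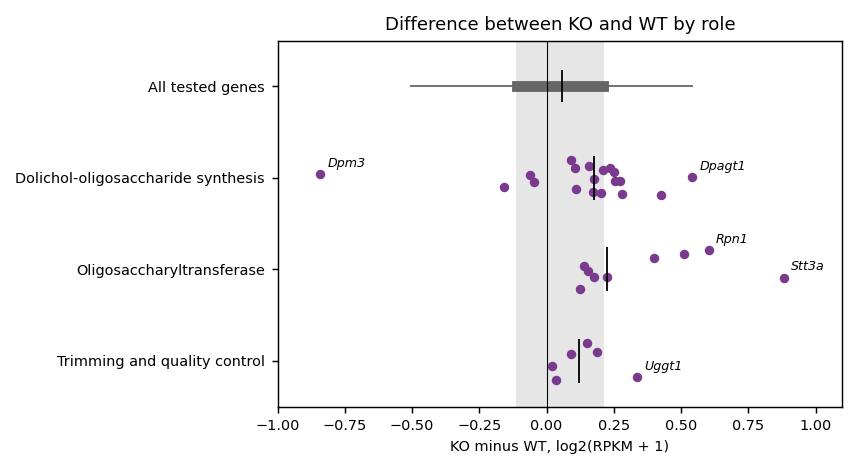
Difference between KO and WT on the log2(RPKM + 1) scale for the 34 tested members by role (points, spread vertically for display), with the role's median as a vertical tick; the top row gives the median, quartiles (thick bar, shaded band) and the central 90% (thin line) of all 10128 tested genes. The role medians are 0.18, 0.22 and 0.12 beside 0.056 for all tested genes, with Stt3a at 0.88 and Dpm3 at -0.84.

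The oligosaccharyltransferase held the 2 largest positive differences, those of Stt3a and Rpn1. All 9 subunits were tested and had positive log2 differences, as did 59.2% of all tested genes, with a median of 0.22. For 6 of the 9 the KO libraries lay above the WT libraries without overlap, beside 30.0% of all tested genes. Of these 9, 3 had a log2 difference of at least 0.5 (Stt3a, Rpn1 and Dad1), as did 5.96% of all tested genes. Mammalian OST exists in a form with STT3A, which acts on proteins as they pass through the translocon, and a form with STT3B, which also acts on sites that the first form misses and carries MAGT1 or TUSC3 as an oxidoreductase subunit.

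Stt3a, the catalytic subunit of the co-translational form (chromosome 9, 36729344 to 36767622), was at 30.1 (KO 27) and 37.2 RPKM (KO 35), against 17.2 (WT 27) and 18.2 (WT 35). Both KO values were well above both WT values. The means were 33.6 ± 4.97 RPKM in KO and 17.7 ± 0.740 in WT, a ratio of 1.90. The log2 difference of 0.88 (SE 0.16) did not pass (limma adjusted p = 0.165), although its unadjusted p of 0.00168 was the lowest among the members. Between KO 35 and WT 27, the libraries on which title and heading give the same group, the difference was 1.07. Stt3b, on the same chromosome (115242470 to 115310468), was at 12.2 (KO 27) and 13.8 RPKM (KO 35), and at 10.6 (WT 27) and 13.2 (WT 35). Its groups overlapped, with a log2 difference of 0.13 (SE 0.16, limma adjusted p = 0.785).

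The ratio of Stt3a to Stt3b was 2.47 (KO 27) and 2.70 (KO 35), against 1.62 (WT 27) and 1.38 (WT 35). The KO ratios lay above the WT ratios without overlap, at 2.58 ± 0.163 in KO and 1.504 ± 0.169 in WT. On the log2 scale the difference was 0.78, with an exact two-sided permutation p of 0.333, which is the smallest that 2 libraries against 2 can give. With the groups of the titles it was -0.051. Of the summed OST RPKM, Stt3a took 13.3% (KO 27) and 14.9% (KO 35), against 10.9% (WT 27) and 9.08% (WT 35). Stt3b took 5.38% (KO 27) and 5.51% (KO 35), against 6.70% (WT 27) and 6.56% (WT 35).

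The ratio of Magt1 to Tusc3, the alternative oxidoreductase subunits, was 0.671 (KO 27) and 0.621 (KO 35), against 0.561 (WT 27) and 0.508 (WT 35). These did not overlap either (exact two-sided permutation p = 0.333, again the smallest possible). Magt1 was at 13.2 (KO 27) and 13.6 RPKM (KO 35), against 10.2 (WT 27) and 9.65 (WT 35) (log2 difference 0.40, SE 0.13, limma adjusted p = 0.290). Tusc3 was at 19.7 (KO 27) and 21.9 RPKM (KO 35), against 18.2 (WT 27) and 18.99 (WT 35), a smaller gap without overlap (log2 difference 0.15, SE 0.14, limma adjusted p = 0.689). Per kilobase, Tusc3 was the more abundant of the pair in every library.

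**Figure D3:**
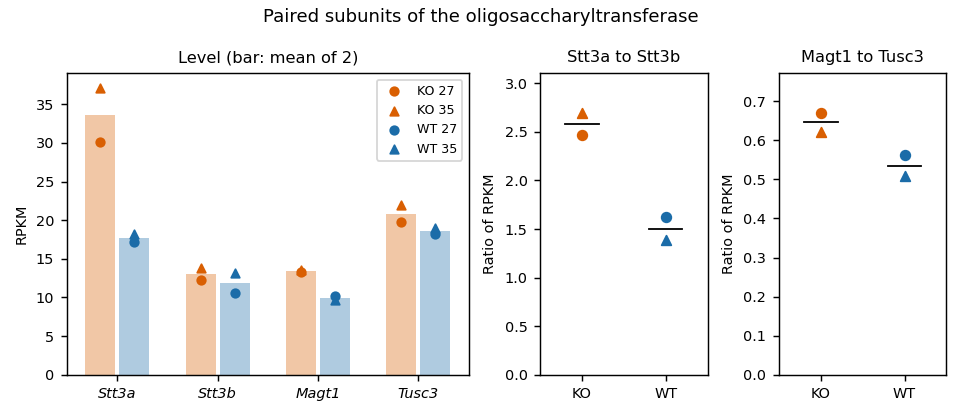
Left, RPKM of the catalytic subunits Stt3a and Stt3b and of the oxidoreductase subunits Magt1 and Tusc3, with bars at the mean of 2 libraries and points for the libraries; middle and right, the ratio of Stt3a to Stt3b and of Magt1 to Tusc3 per library with a line at the group mean. KO is orange and WT blue; the Stt3a to Stt3b ratio is 2.47 and 2.70 in KO against 1.62 and 1.38 in WT.

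Of the subunits shared by both forms, Rpn1, ribophorin I (chromosome 6, 88084473 to 88105304), was at 16.4 (KO 27) and 14.9 RPKM (KO 35), against 9.79 (WT 27) and 10.1 (WT 35). The groups were clearly apart, with means of 15.6 ± 1.01 RPKM in KO and 9.94 ± 0.215 in WT (log2 difference 0.60, SE 0.13, limma adjusted p = 0.196). Its partner Rpn2, ribophorin II, was at 17.9 (KO 27) and 21.4 RPKM (KO 35), and at 15.1 (WT 27) and 18.3 (WT 35), with overlap (log2 difference 0.22). Dad1, a small subunit named for the cell death that follows its loss, was at 80.1 (KO 27) and 87.5 RPKM (KO 35), against 47.6 (WT 27) and 71.5 (WT 35). The WT libraries were farther from each other than WT 35 was from KO 27 (log2 difference 0.51, SE 0.22, limma adjusted p = 0.388). Ddost was at 17.8 (KO 27) and 16.2 RPKM (KO 35), against 14.6 (WT 27) and 15.2 (WT 35), without overlap (log2 difference 0.18). Ostc, which belongs to the form with STT3A, was at 19.7 (KO 27) and 23.3 RPKM (KO 35), and at 14.6 (WT 27) and 25.5 (WT 35). Its groups overlapped, with the highest and the lowest value both in WT.

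The promoters of Stt3a and Rpn1, the members with the largest positive differences, and of Stt3b are shown to compare the catalytic pair. None held a complete element of those searched. Capitals mark CCAAT and CCACG, the outer letters of the ERSE, on either strand, a search added after the first was seen. CCAAT was in the windows of 17 of 31 members and of 41.1% of all genes, and CCACG in those of 16 of 31 members and of 35.5% of all genes. The 250 bases before the start sites (RefSeq, GRCm38.p6) read:
Stt3a (chr9:36767623-36767872, - strand): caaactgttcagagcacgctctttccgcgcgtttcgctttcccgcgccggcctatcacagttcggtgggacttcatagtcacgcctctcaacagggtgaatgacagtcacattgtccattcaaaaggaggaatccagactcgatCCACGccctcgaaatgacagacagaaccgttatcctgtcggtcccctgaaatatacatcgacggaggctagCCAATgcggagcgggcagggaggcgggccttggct
Stt3b (chr9:115310469-115310718, - strand): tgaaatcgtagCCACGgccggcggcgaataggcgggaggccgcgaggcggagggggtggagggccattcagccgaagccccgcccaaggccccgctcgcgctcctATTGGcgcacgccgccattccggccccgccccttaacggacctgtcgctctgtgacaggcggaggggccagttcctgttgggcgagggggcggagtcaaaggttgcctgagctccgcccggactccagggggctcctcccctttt
Rpn1 (chr6:88084223-88084472, + strand): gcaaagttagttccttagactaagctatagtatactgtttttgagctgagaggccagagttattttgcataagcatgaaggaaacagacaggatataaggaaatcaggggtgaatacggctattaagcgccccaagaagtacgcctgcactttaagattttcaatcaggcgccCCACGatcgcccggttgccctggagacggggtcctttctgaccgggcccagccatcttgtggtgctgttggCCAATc
Stt3a and Stt3b held 1 match to each of the letters in the whole window, and Rpn1 held 1 CCAAT and 2 CCACG.

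Of the 7 genes of trimming and quality control 6 were tested, with a median log2 difference of 0.12. All 6 differences were positive, as were 59.2% of all tested genes, and 3 of the 6 lay above in KO without overlap, beside 30.0% of all tested genes. Mogs, glucosidase I, which removes the outermost glucose, was at 2.45 (KO 27) and 3.03 RPKM (KO 35), and at 2.45 (WT 27) and 2.84 (WT 35), with overlap. Ganab, the catalytic subunit of glucosidase II, was at 18.9 (KO 27) and 18.2 RPKM (KO 35), against 16.7 (WT 27) and 15.7 (WT 35), without overlap (log2 difference 0.19, SE 0.13, limma adjusted p = 0.605). Its regulatory partner Prkcsh was at 11.03 (KO 27) and 8.54 RPKM (KO 35), and at 9.80 (WT 27) and 9.34 (WT 35), with both WT values between the KO values. Glucosidase II therefore had 1 subunit without overlap and 1 with a log2 difference of 0.020.

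Uggt1, the folding sensor that puts glucose back on unfolded glycoproteins (chromosome 1, 36140028 to 36244320), had the largest difference of this role. It was at 5.55 (KO 27) and 6.14 RPKM (KO 35), against 4.57 (WT 27) and 4.27 (WT 35). The groups did not overlap (log2 difference 0.34, SE 0.13, limma adjusted p = 0.359). Its paralogue Uggt2 stayed under 1 RPKM in every library, at 0.337 (KO 27) and 0.586 (KO 35), and at 0.305 (WT 27) and 0.396 (WT 35), and was not tested. Man1b1, the ER mannosidase that marks misfolded glycoproteins, was at 2.67 (KO 27) and 2.22 RPKM (KO 35), and at 1.69 (WT 27) and 2.87 (WT 35). Both KO values lay between the WT values. Lman1, a lectin that carries glycoproteins from the ER to the Golgi (chromosome 18, 65980739 to 66002635), was at 16.1 (KO 27) and 17.9 RPKM (KO 35), against 14.97 (WT 27) and 15.5 (WT 35), a small gap without overlap (log2 difference 0.15, SE 0.14, limma adjusted p = 0.691).

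The rest of the pathway was read from 45 genes outside the 37, of which 41 were tested. None passed the test in either direction, where 0.0691% of all tested genes did. At an unadjusted limma p under 0.05 there were 8 higher (19.5%) and 1 lower (2.44%), beside 8.17% and 5.68% of all tested genes. Both KO libraries lay above both WT libraries for 23 of the 41 and below for 4, beside 30.0% and 16.3% of all tested genes. The list of ER lectins and cargo lectins also holds Edem1, Edem2, Edem3 and Mcfd2. Of its 11 genes 9 were above without overlap, beside 30.0% of all tested genes. Their median log2 difference over the 11 was 0.24. Calreticulin (Calr) and calnexin (Canx), which bind glycoproteins that carry a single glucose, were at 43.1 ± 1.61 and 31.0 ± 0.598 RPKM in KO against 27.8 ± 2.30 and 21.6 ± 0.0258 in WT. Malectin (Mlec), which binds the tree with its inner glucoses, averaged 42.3 ± 2.58 RPKM in KO and 28.4 ± 0.0464 RPKM in WT.

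Genes that supply sugar donors were above without overlap for 7 of 12, beside 30.0% of all tested genes, with a median log2 difference of 0.22. The 1 below without overlap (16.3% of all tested genes) was Ugp2, which makes UDP-glucose, with a log2 difference of -0.28. Gfpt1, the entry enzyme of the hexosamine pathway that ends in UDP-N-acetylglucosamine, was at 21.8 (KO 27) and 23.1 RPKM (KO 35), against 15.4 (WT 27) and 14.1 (WT 35) (log2 difference 0.57, SE 0.13, limma adjusted p = 0.205). Gmppa, a subunit that regulates GDP-mannose synthesis, averaged 12.8 ± 1.41 RPKM in KO and 9.29 ± 0.830 RPKM in WT. The phosphomannomutase gene Pmm2 averaged 3.91 ± 0.243 RPKM in KO and 2.91 ± 0.524 RPKM in WT. Of the small OST subunits, Ost4 averaged 227 ± 32.1 RPKM in KO and 171 ± 12.3 RPKM in WT, without overlap. Krtcap2 averaged 11.6 ± 0.765 RPKM in KO and 9.75 ± 4.10 RPKM in WT, and Tmem258 12.4 ± 1.94 RPKM in KO and 13.8 ± 1.31 RPKM in WT, both with overlap.

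Of the Golgi enzymes that remodel the tree after the ER, 5 of 13 (38.5%) were above and 3 (23.1%) below without overlap, near the 30.0% and 16.3% of all tested genes. Mgat3, which adds the bisecting N-acetylglucosamine, was at 0.949 (KO 27) and 0.824 RPKM (KO 35), against 2.23 (WT 27) and 1.91 (WT 35) (log2 difference -0.70, SE 0.15, limma adjusted p = 0.196). It passed the level filter only through WT. Mgat2 and Mgat4b, which start further branches, were at 2.59 ± 0.541 and 3.68 ± 0.0673 RPKM in KO against 1.68 ± 0.116 and 2.44 ± 0.748 in WT. The cytosolic enzymes Ngly1 and Man2c1, which take apart sugar trees of discarded proteins, were at 3.80 ± 0.156 and 1.35 ± 0.181 RPKM in KO and at 3.54 ± 0.0653 and 1.19 ± 0.149 in WT.

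For comparison, Hspa5, which encodes the ER chaperone BiP, had a log2 difference of 0.87 (SE 0.15), beside 0.88 for Stt3a. Hspa5 did not pass the test either (limma adjusted p = 0.159). It was at 158 (KO 27) and 173 RPKM (KO 35), against 95.4 (WT 27) and 84.9 (WT 35). By library, the members' median deviation from their own mean over the 4 libraries was 0.047 (KO 27) and 0.14 (KO 35), against -0.11 (WT 27) and -0.053 (WT 35), in log2 units. For all tested genes it was 0.020 (KO 27) and 0.038 (KO 35), against -0.046 (WT 27) and -0.015 (WT 35). KO 35 and WT 27 were therefore the libraries farthest apart for both.

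The authors' deposited table also gives a signed fold change and a p-value per gene, and these differ from the RPKM of the same table according to the chromosome of the gene. In the authors' deposited table Stt3a has a signed fold change of -1.01, Rpn1 of -1.40 and Magt1 of -1.52, although both KO libraries had the higher RPKM for each. Among genes with at least 2 RPKM in every library, the log2 fold change of the authors' deposited table minus the log2 ratio of mean RPKM had a median between -0.072 and -0.057 on each of chromosomes 1 and 10 to 19 and on chromosome 2 up to position 147012755. From position 148042877 of chromosome 2 onward, and on chromosomes 3 to 9 and X, the median was between -1.08 and -1.02. The difference was under -0.5 for 0.316% of 3476 genes in the first stretch and for 99.8% of 2980 in the second. The RPKM ratios themselves showed no such step, with chromosome medians between 0.022 and 0.11 in the first and between 0.026 and 0.11 in the second. Of the members, 14 lie in the first stretch and 23 in the second. The fold change of the authors' deposited table is positive for 0 of these 23, while their mean RPKM was higher in KO for 20. In the first stretch the authors' deposited table has 11 of 14 positive, and the mean RPKM was higher in KO for 13. For this reason the authors' fold changes and p-values were not used for any comparison above.

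**Figure D4:**
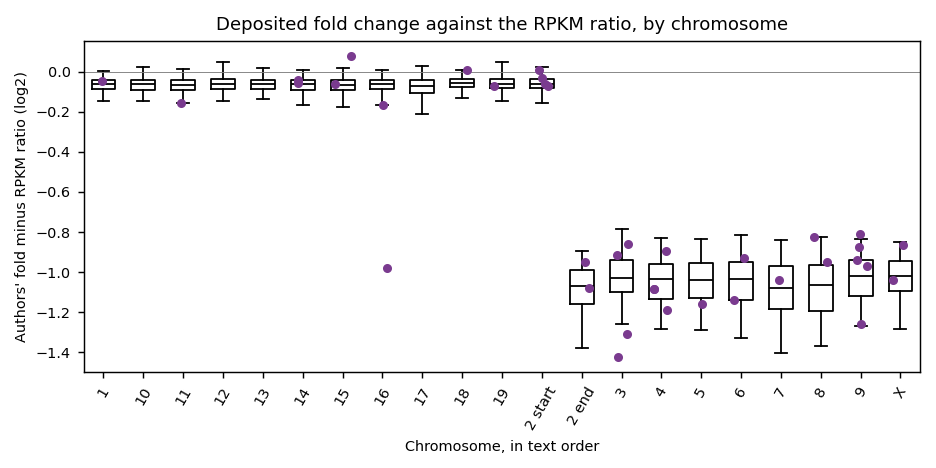
Log2 fold change of the authors' deposited table minus the log2 ratio of mean RPKM (KO over WT), by chromosome in text order; boxes give the quartiles and whiskers the central 90% of genes with at least 2 RPKM in every library, and purple points are the 37 members. Chromosomes 1, 10 to 19 and the start of 2 lie near 0, and the end of chromosome 2 and chromosomes 3 to 9 and X near -1; the 1 member near -1 in the first stretch is Alg1, which is under 1 RPKM.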

How the data were processed

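Per the labels' protocols, RNA of the sorted cells was purified with an RNeasy Micro kit and sequenced from Nextera XT libraries, which do not mark strand. Bowtie2 2.1.0, TopHat2 2.0.8, Cufflinks 2.0.2, DESeq and the genome mm10 (GRCm38) are listed in the submitters' processing notes, with no roles. The deposited table gives RPKM for each library on a linear scale, per the file headers. The authors' p-value, which carries no mark of adjustment, is deposited beside them. So is the authors' fold change, a signed score: a ratio below 1 is written as minus its inverse.

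Column headings set the groups. Differences on log2(RPKM + 1) were fitted by limma 3.58.1 (R 4.3.3; variance trend; genotype alone; 2 residual degrees of freedom, 3.65 prior) for the 10128 genes with 1 RPKM or more in 2 libraries. Each p is two-sided, adjusted by Benjamini-Hochberg across these genes, with 0.05 as threshold. This scale understates fold changes of low genes. Values in every library are given for Dpagt1, the catalytic and paired OST subunits, the trimming genes and the 6 members of each role with the smallest p, and for further members by role. Outside the members, up to 3 genes per list with the smallest p are named. The members and lists were chosen with earlier results of these data known. Gene positions and promoters are RefSeq's on GRCm38, and exon overlaps are GENCODE's. Protein sequences were not used here. The other settings tried were 2 scalings, limma without the trend, no filter and a filter of 10 RPKM, pseudocounts of 0.1 and 5, each library left out, KO 35 and WT 27 alone, the groups of the titles and a block by heading number.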

Additional observations from a re-analysis of the deposited data

How the results depend on the processing

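No member passed the test, in either direction, in any setting that gives one (KO 35 against WT 27 alone gives none). Limma without the trend, no filter, the filter of 10 RPKM and the block by heading number left each log2 difference unchanged. Values from them could therefore not turn. The 20 members followed were chosen partly for a small p within their role in these same data. Over all settings with the groups of the headings, 240 of 250 values of these members had the direction given above. This count includes the values that could not turn. The ratios of RPKM within a library are not changed by scaling. The log2 difference of Stt3a lay between 0.74 and 1.07 over these settings, and its adjusted p between 0.130 and 0.632. The exceptions in direction were Prkcsh (-0.038 with quantile normalization, -0.010 when RPKM was rescaled without the 10 most abundant genes, -0.18 between KO 35 and WT 27 alone, and from -0.15 to 0.19 with a library left out), Man1b1 (-0.17 to 0.35 with a library left out), Mogs (-0.077 to 0.15) and Stt3b (-0.020 to 0.27). The cause was not tested. Over all genes the test called 7, and it called 0 with no filter, 4 with the filter of 10 RPKM or a pseudocount of 5, 10 with a pseudocount of 0.1, 43 without WT 27 and 28 without WT 35.

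The synthesis median was 0.12 with quantile normalization, 0.11 with a pseudocount of 5, 0.24 between KO 35 and WT 27 alone and 0.12 to 0.21 with a library left out, and -0.045 with a filter of 10 RPKM, which leaves 1 gene of this role, Alg14. The OST median was 0.48 between KO 35 and WT 27 alone and 0.15 to 0.36 with a library left out. The trimming median was 0.077 with quantile normalization, 0.094 with rescaling, 0.17 with the filter of 10 RPKM, 0.15 and 0.079 with pseudocounts of 0.1 and 5, 0.24 between KO 35 and WT 27 alone and 0.090 to 0.19 with a library left out. The order of the synthesis and trimming medians turned without KO 35 (0.12 and 0.19) and with the filter of 10 RPKM, and between KO 35 and WT 27 alone both were 0.24. Without overlap, 8 members were above and 0 below with the filter of 10 RPKM (12 tested), beside 34.4% and 15.2% of all tested genes. Between KO 35 and WT 27 alone 29 were above and 5 below, beside 60.2% and 39.7%. With a library left out 21 to 26 were above and 3 to 5 below, while the shares of all tested genes were also higher, at 41.6% to 48.1% and 26.5% to 32.4%; with quantile normalization 16 were above, beside 24.2% of all tested genes. The Magt1 to Tusc3 log2 ratio differed by 0.14 between KO 35 and WT 27 alone. The median of all tested genes was 0.015 with quantile normalization and 0.030 with rescaling.

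With the groups of the sample titles (KO 35 and WT 35 against KO 27 and WT 27) the log2 differences of 9 of the 20 members turned, to -0.14 for Alg8, -0.043 for Ddost, -0.12 for Dpm2, 0.45 for Dpm3, -0.069 for Ganab, -0.020 for Magt1, -0.20 for Prkcsh, -0.042 for Rpn1 and -0.11 for Srd5a3. The 2 titled knockout libraries were then above for 8 members and below for 3. No share of all tested genes is at hand for these groups, so these counts are not read further. With the title groups the synthesis and trimming medians were 0.093 and 0.058. The log2 differences of the Stt3a to Stt3b and Magt1 to Tusc3 ratios were -0.051 and -0.13. A replicate block by the heading numbers 27 and 35 changed no call: 0 members passed, and Stt3a had a limma adjusted p of 0.130. The block does not alter the values, so the 19 above without overlap could not change. The labels do not say that these numbers pair libraries; the deviations of same-numbered libraries correlated at 0.15 across genes. The titles carry replicate numbers too, but in the heading groups they coincide with genotype, so no block on them could be fitted. With 2 libraries per group and depth unknown, smaller differences cannot be resolved.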

Other observations

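In the authors' deposited table, the p-value was under 0.05 for 12 of 3476 genes on chromosomes 1 and 10 to 19 and the start of chromosome 2, of which 3 have a positive and 9 a negative fold change. From position 148042877 of chromosome 2 onward and on chromosomes 3 to 9 and X it was under 0.05 for 160 of 2980 genes, of which 0 have a positive and 160 a negative fold change. On chromosome 2, the step was placed where it left the fewest genes on the wrong side. All but 1 of 496 genes then fall on the side that their position gives, which this choice favours. There are 360 genes up to Xrn2 (difference -0.06) and 136 from Foxa2 (difference -0.95) onward. The stretches follow the order of chromosome names sorted as text. These genes have at least 2 RPKM in every library, and the comparison was chosen after the members' values were seen. Across these chromosomes the median log2 ratio of RPKM was 0.09 in the first stretch and 0.07 in the second. The origin of the step was not tested.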
